A study of Mus musculus with 6 samples.

Results

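A set of 10 secreted plasma carrier genes (*Afp*, *Alb*, *Gc*, *Ttr*, *Rbp4*, *Trf*, *Hpx*, *Spp2*, *Ahsg* and *Vtn*) was followed through every library of a mouse embryo RNA-seq series. The 10 genes were taken as a list of carriers made by the endoderm of the yolk sac and by the liver bud. Their symbols were matched to the Ensembl identifiers of a table of 55401 genes, and the rule itself uses no measured value. All 10 were found in the table, and 8 of them passed the filter on low counts that left 16784 genes for testing. *Ahsg* and *Gc* did not pass.

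The libraries came from whole embryos at midgestation (E10.5). WT littermates carried the unmodified *Igf2* locus, and *Mir483* 5C embryos (5C) carried extra copies of *Mir483* in tandem at that locus, the host of this microRNA gene. There were 3 libraries of each genotype, and the study's methods describe each as 2 male embryos pooled. The 5C allele was built in JM8.F6 embryonic stem cells, and of the copy-number alleles designed it was the only one to pass through the germ line. Per the study, 5C embryos stop developing at midgestation, so genotype and developmental stage cannot be told apart in this comparison.

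Plasma carriers are secreted proteins that keep poorly soluble or reactive cargo, such as retinol, thyroxine, iron, heme and fatty acids, in solution. In the mouse embryo the visceral endoderm of the yolk sac makes most of them before the liver bud takes over, and transcription factors of the HNF1, HNF4, FOXA and GATA families drive many of their promoters. *Afp*, *Ttr*, *Trf* and *Rbp4* are classic products of yolk sac endoderm, whereas *Alb* rises with the hepatocyte lineage. The yolk sac lies outside the embryo.

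The edited gene was examined first. *Mir483* (chr7:142654924-142654996, GRCm38, minus strand) lies inside *Igf2*, and reads from the host transcript and from the microRNA gene cannot be told apart there. It had 11, 5 and 2 reads in the WT libraries and 85, 51 and 36 reads in the 5C libraries. The WT libraries averaged 0.441 ± 0.129 and the 5C libraries 4.01 ± 1.32 CPM (SD, n = 3), where CPM is the reads of a gene in a library scaled to 1000000 reads, and the groups did not overlap. The log2 fold change was 3.05 (SE 0.36), with an adjusted p of 0.169 in edgeR's quasi-likelihood test over all genes. The mature products are shown because they are what the extra copies encode, with the seed (bases 2 to 8) in capitals. Poly(A)-selected libraries do not count them.
mmu-miR-483-3p: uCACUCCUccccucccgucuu
mmu-miR-483-5p: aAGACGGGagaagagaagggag

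The matches to these seeds, AGGAGTG for the 3p and CCCGTCT for the 5p product, were looked for in the annotated 3′ UTRs of the carrier genes. The search covered the given strand of 1 transcript per gene, and found 0 matches to either seed in all 10 genes. Their 3′ UTRs were short, with a median of 195.5 bases (69 to 583) beside 1199 bases over 13900 tested genes with a 3′ UTR. Of those 13900 genes, 12.4% held the 3p match and 3.44% the 5p match. The result says only that these letters were not in these windows.

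Promoter windows of RefSeq (GRCm38.p6), from 250 bases before to 50 bases after the start, were at hand for 8 of the 10 genes. Short motifs of 4 factors were searched. The HNF1 half-site GTTAAT, on either strand, was present upstream of *Afp*, *Alb*, *Gc* and *Vtn*, and in 7.10% of all 32851 windows. Its first base lay 105 bases before the start in *Afp*, 32 in *Alb*, 52 in *Gc* and 112 in *Vtn*, where it stood on the minus strand. The start meant here is that of the RefSeq window. In *Afp*, *Alb* and *Vtn* it is not the first base of the gene coordinates given further below. Upstream parts of 250 bases are printed for *Afp*, *Alb* and *Vtn*, with the half-site in capitals, because these 3 genes hold the same letters while their levels varied between libraries to very different degrees.
Afp promoter, chr5:90490464-90490713, + strand: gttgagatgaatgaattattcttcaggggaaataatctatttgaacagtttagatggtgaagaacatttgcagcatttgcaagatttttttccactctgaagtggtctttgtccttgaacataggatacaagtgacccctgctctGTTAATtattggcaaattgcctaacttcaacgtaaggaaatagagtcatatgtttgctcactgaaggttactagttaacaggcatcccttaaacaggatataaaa
Alb promoter, chr5:90460620-90460869, + strand: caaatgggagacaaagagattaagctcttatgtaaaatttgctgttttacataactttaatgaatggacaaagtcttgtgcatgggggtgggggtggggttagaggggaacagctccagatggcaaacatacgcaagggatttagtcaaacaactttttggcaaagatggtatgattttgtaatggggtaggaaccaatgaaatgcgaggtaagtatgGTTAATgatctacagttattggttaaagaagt
Vtn promoter, chr11:78498870-78499119, + strand: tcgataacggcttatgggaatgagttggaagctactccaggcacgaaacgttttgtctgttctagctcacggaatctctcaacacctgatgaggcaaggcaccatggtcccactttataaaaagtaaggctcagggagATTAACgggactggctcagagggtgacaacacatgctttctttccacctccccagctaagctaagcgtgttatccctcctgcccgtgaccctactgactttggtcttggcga
Of the 4 genes with the half-site, *Afp* and *Gc* varied widely between libraries, and *Alb* and *Vtn* far less. The FOXA motif TGTTTAC was found in a window of *Rbp4* (3.65% of all windows, both strands), and the GATA motif AGATAA in *Spp2* and *Ahsg* (11.2%, both strands). TATAAA, on the given strand, was found in *Afp*, *Vtn* and *Rbp4* (8.32%). A match of letters is a description of the window and not a bound site.

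Depth ran from 6357343 reads in WT replicate 3 to 19151368 in WT replicate 1, and 3 reads, the most that a count of 0 allows, correspond to 0.472 and 0.157 CPM there. Levels are given as CPM after TMM scaling of library sizes. One library of each genotype stood apart from the rest in genes of the visceral endoderm. The 8 yolk sac endoderm markers (*Cubn*, *Amn*, *Lrp2*, *Apoa4*, *Rhox5*, *S100g*, *Lgals2* and *Muc13*) summed to 1025 CPM in WT replicate 1, 98.9 in WT replicate 2 and 145 in WT replicate 3. The same sum was 80.7, 62.8 and 248.5 CPM in 5C replicates 1 to 3. All 8 markers were highest in WT replicate 1, and *Cubn*, an endocytic receptor of this epithelium, ranged from 3.24 CPM in 5C replicate 2 to 502 CPM in WT replicate 1. Since whole embryos were measured, fewer cells of a type and less RNA per cell cannot be told apart. The comparison of genotypes is given with all 6 libraries and, for the carrier genes and the yolk sac markers, also without WT replicate 1 and 5C replicate 3. The other gene lists were compared with all 6 libraries only.

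Together the 10 carrier genes took 0.400% of all reads in WT replicate 1, 0.0178% in WT replicate 2 and 0.0329% in WT replicate 3. They took 0.0155%, 0.0154% and 0.0839% of the reads in 5C replicates 1, 2 and 3. WT replicate 1 was the highest library for 8 of the 10 genes, a count for which no share over all genes was computed. For *Alb* and *Ahsg*, which are among the 8, its exact 95% Poisson interval overlapped that of WT replicate 3. For 6 of the 8 (*Afp*, *Ttr*, *Trf*, *Rbp4*, *Spp2* and *Gc*) 5C replicate 3 was the second highest, and 5 of these 6 were tested. This order was found in 4.08% of all genes tested. Among the remaining libraries, WT replicates 2 and 3 and 5C replicates 1 and 2, the highest was 2.12-fold (*Ttr*) to 2.67-fold (*Afp*) above the lowest for *Afp*, *Ttr*, *Trf*, *Rbp4* and *Alb*. The same range was 1.08-fold for *Vtn*, and it was wider for *Hpx* and *Spp2*, which had few reads there.

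**Figure D1:**
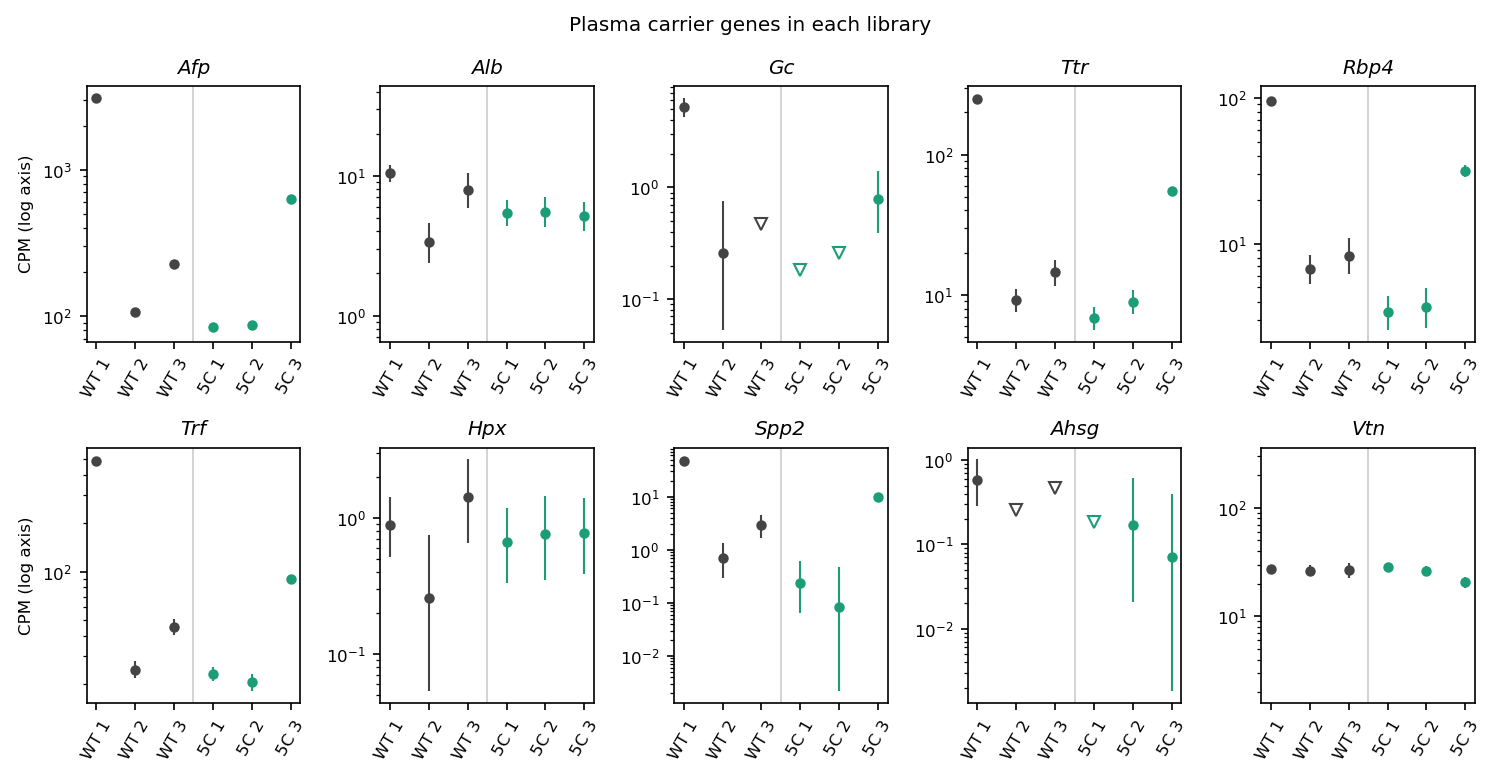
Level of each carrier gene in each library (CPM, log axis) for WT (dark) and 5C (green), with bars for exact 95% Poisson intervals of the count and open triangles for the limit set by a count of 0. *Afp*, *Ttr*, *Trf*, *Rbp4*, *Spp2* and *Gc* share one profile, highest in WT replicate 1 and next in 5C replicate 3, while *Vtn* is nearly even.

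Alpha-fetoprotein, albumin and the vitamin D-binding protein, the product of *Gc*, form the albumin family, and their genes lie on chromosome 5. *Afp* (ENSMUSG00000054932, chr5:90490737-90508907, GRCm38) encodes the most abundant plasma protein of the fetus. *Afp* had 3083 CPM in WT replicate 1, 107 CPM in WT replicate 2 and 226 CPM in WT replicate 3. In the 5C libraries it had 84.6, 87.1 and 631 CPM. WT replicate 1 was 31.8-fold and 5C replicate 3 6.50-fold above the median of the other 4 libraries, and the genotypes overlapped. WT averaged 1139 ± 1685 CPM of *Afp* and 5C 268 ± 315 CPM (SD, n = 3), so that the SD exceeded the mean in both groups. The log2 fold change of *Afp* was -2.09 (SE 1.18, 95% interval -4.73 to 0.55), and its adjusted p was 0.781 by edgeR.

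*Alb* (ENSMUSG00000029368, chr5:90460897-90476602), the neighbour of *Afp*, encodes the main plasma protein after birth. Its levels were 10.46, 3.34 and 7.96 CPM in WT replicates 1 to 3 and 5.44, 5.54 and 5.11 CPM in 5C replicates 1 to 3. All 3 of the 5C values lay inside the WT range, and WT replicate 1 was only 2.05-fold above 5C replicate 3. The log2 fold change of *Alb* was -0.45 (SE 0.33, 95% interval -1.20 to 0.30; edgeR adjusted p = 0.798). *Alb* therefore did not share the library profile of its neighbour *Afp*: the highest library was 3.13-fold above the lowest for *Alb* and 36.4-fold for *Afp*.

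*Gc* (ENSMUSG00000035540, chr5:89417522-89457898, minus strand) was rare. It had 100 reads in WT replicate 1, 3 in WT replicate 2 and 0 in WT replicate 3, against 0, 0 and 11 reads in the 5C libraries. The 100 reads were 5.23 CPM (exact 95% Poisson interval 4.26 to 6.36), and the 11 reads of 5C replicate 3 were 0.781 CPM (0.390 to 1.40). The order of the 2 high libraries was that of *Afp*, but the gene was too low in the others for a test of genotype.

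Transthyretin and retinol-binding protein 4 travel as one complex in plasma, the first carrying thyroxine and the second retinol. *Ttr* (ENSMUSG00000061808, chromosome 18) had 247 CPM in WT replicate 1, 9.17 in WT replicate 2 and 14.5 in WT replicate 3. In 5C replicates 1 to 3 the *Ttr* level was 6.83, 8.94 and 54.7 CPM. *Rbp4* (ENSMUSG00000024990, chr19:38116629-38125281, minus strand) had 95.5, 6.68 and 8.28 CPM in the WT libraries and 3.39, 3.66 and 31.5 CPM in the 5C libraries. Both genes followed the profile of *Afp*, with the same 2 libraries high and the genotypes overlapping. WT replicate 1 stood 27.3-fold above the median of the other 4 libraries for *Ttr* and 18.5-fold for *Rbp4*, and 5C replicate 3 stood 6.04-fold and 6.10-fold above it.

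For *Ttr* WT averaged 90.3 ± 136 and 5C 23.5 ± 27.0 CPM (SD, n = 3), with a log2 fold change of -1.99 (SE 1.13, 95% interval -4.53 to 0.55). The averages of *Rbp4* were 36.8 ± 50.8 and 12.9 ± 16.2 CPM, with a log2 fold change of -1.58 (SE 1.04, 95% interval -3.92 to 0.76). Neither gene passed the test (edgeR adjusted p = 0.781 for both). Choroid plexus also makes transthyretin. The 6 choroid plexus and roof plate markers summed to 69.5 to 104 CPM in WT and 72.9 to 83.6 CPM in 5C, but their members differed in profile. *Folr1*, a folate receptor, had the order of *Ttr*, with 27.9 CPM in WT replicate 1, 6.96 in 5C replicate 3 and 1.87 to 3.18 CPM in the other 4 libraries. *Clic6* also followed it, with 23.4, 10.3 and 7.16 to 8.26 CPM, while *Lmx1a*, a roof plate factor, lay between 15.98 and 22.5 CPM in all 6. *Otx2* and *Wnt3a* went the other way and were lowest in WT replicate 1, with 31.9 and 4.03 CPM. The part of choroid plexus in the level of *Ttr* was not tested.

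Transferrin and hemopexin handle iron, the first as ferric ion for delivery to cells and the second as free heme. *Trf* (ENSMUSG00000032554, chr9:103204001-103230444, minus strand) had 493 CPM in WT replicate 1, 24.7 in WT replicate 2 and 45.5 in WT replicate 3. Its level was 23.1, 20.5 and 90.2 CPM in 5C replicates 1 to 3. WT replicate 1 was 20.6-fold and 5C replicate 3 3.78-fold above the median of the other 4 libraries, the smallest excess in 5C replicate 3 among *Afp*, *Ttr*, *Trf* and *Rbp4*. For *Trf* WT averaged 188 ± 264 and 5C 44.6 ± 39.5 CPM (SD, n = 3). The *Trf* log2 fold change was -2.10 (SE 0.99, 95% interval -4.32 to 0.13), and its unadjusted p of 0.0624 was the smallest of the 8 genes tested, with an adjusted p of 0.781 by edgeR. In the GENCODE annotation 2108 of the 3320 exon bases of *Trf* also lie under *Gm20425* on the same strand, a gene model that has no row in the count table.

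*Hpx* (ENSMUSG00000030895, chr7:105591613-105600137, minus strand) was near the lower limit of detection. It had 17, 3 and 9 reads in the WT libraries and 11, 9 and 11 reads in the 5C libraries. The WT levels were 0.889, 0.257 and 1.43 CPM, the 5C levels 0.665, 0.767 and 0.781 CPM, with all 5C values inside the WT range. Its log2 fold change was -0.11 (SE 0.48, 95% interval -1.18 to 0.97; edgeR adjusted p = 0.978), an interval that leaves room for a change of over 1.5-fold in either direction.

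*Spp2* and *Ahsg* encode secreted phosphoprotein 24 and fetuin-A, cystatin-domain proteins that are carried in plasma with calcium phosphate. *Spp2* (ENSMUSG00000026295, chr1:88406961-88426438) had 911 reads in WT replicate 1, 8 in WT replicate 2 and 18 in WT replicate 3. It had 4 reads in 5C replicate 1, 1 in 5C replicate 2 and 139 in 5C replicate 3. In CPM these were 47.7, 0.685 and 2.86 in WT and 0.242, 0.0852 and 9.87 in 5C, so that the same 2 libraries were high and the genotypes overlapped. The single read of 5C replicate 2 has an exact 95% Poisson interval from 0.00216 to 0.475 CPM, which leaves its distance from the other low libraries poorly known.

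The *Spp2* log2 fold change was -2.41 (SE 1.38, 95% interval -5.50 to 0.68; edgeR adjusted p = 0.781), the most negative of the 8. *Ahsg* (ENSMUSG00000022868, chr16:22891277-22899449) had 11 reads in WT replicate 1, 2 in 5C replicate 2, 1 in 5C replicate 3 and 0 in the other libraries. Its level in WT replicate 1, 0.576 CPM (0.287 to 1.03), was the only one above the limit that a count of 0 allows in its own library. Fetuin-A, a liver protein of later gestation, was thus hardly detectable in these embryos at this depth.

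Vitronectin binds integrins and the plasminogen activator inhibitor PAI-1, and pericytes express it as well as liver. *Vtn* (ENSMUSG00000017344, chr11:78499091-78502324) had 27.5, 26.3 and 26.6 CPM in the WT libraries and 28.3, 26.2 and 20.7 CPM in the 5C libraries. WT replicate 1 did not stand out for this gene, and 5C replicate 3, one of the high libraries for *Afp*, was the lowest. The *Vtn* log2 fold change was -0.10 (SE 0.12, 95% interval -0.37 to 0.18; edgeR adjusted p = 0.879), and this interval lies within 1.5-fold of no change. The 5 pericyte markers summed to 109 to 131 CPM in WT and 102 to 106 CPM in 5C.

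The spread over the 6 libraries set the genes apart. As the SD of log2 CPM, with a prior count of 2, it was 2.94 for *Spp2*, 2.06 for *Afp*, 2.01 for *Ttr*, 1.88 for *Rbp4* and 1.76 for *Trf*. These 5 ranked 7th, 30th, 36th, 46th and 53rd of the 16784 genes tested, where the median SD was 0.157 and the 99th percentile 0.973. *Hpx* and *Alb* followed with 0.637 and 0.552, and *Vtn* had 0.159, close to the median gene. The carriers thus ran from some of the most variable genes of these libraries down to the median gene.

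Composition was then compared within each library, as reads per 1000 *Afp* reads, which is free of the scaling between libraries. *Ttr* kept within a narrow range, with 80.2, 85.7 and 64.1 in WT replicates 1 to 3 and 80.7, 102.7 and 86.7 in 5C replicates 1 to 3. The exact 95% intervals of *Ttr* in WT replicate 1 (77.8 to 82.6) and 5C replicate 3 (80.4 to 93.3) overlapped, although *Afp* itself differed 4.89-fold between these libraries. The intervals of WT replicate 3 (51.3 to 79.2) and 5C replicate 2 (83.2 to 126) did not overlap, so the ratio was not the same in all libraries. It was still much steadier than the level of either gene.

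*Rbp4* moved between 31.0 reads per 1000 *Afp* reads in WT replicate 1 and 62.4 in WT replicate 2. *Trf* was lowest in the 2 libraries rich in *Afp*, with 160 in WT replicate 1 and 143 in 5C replicate 3, and lay between 201 and 273 in the other 4. Their counting intervals did not reach each other, 156 to 163 and 135 to 152 against a lowest bound of 177 in the other 4. The excess of *Trf* in these libraries was thus smaller than that of *Afp*.

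*Spp2* showed another order. It had 15.5 and 15.6 reads per 1000 *Afp* reads in WT replicate 1 and 5C replicate 3, 6.41 and 12.7 in WT replicates 2 and 3, and 2.86 and 0.978 in 5C replicates 1 and 2. The interval of WT replicate 3, 7.49 to 20.1, held the values of both high libraries, whereas those of 5C replicates 1 and 2 ended at 7.33 and 5.46. The interval of WT replicate 2, 2.76 to 12.7, did not hold those values and overlapped the intervals of 5C replicates 1 and 2. The ratio of *Alb* was 64.3 in 5C replicate 1 and 3.39 in WT replicate 1, and that of *Vtn* 334 and 8.91 in the same libraries. The levels of *Alb* and *Vtn* themselves differed far less than these ratios. The intervals of all these ratios cover counting error only.

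**Figure D2:**
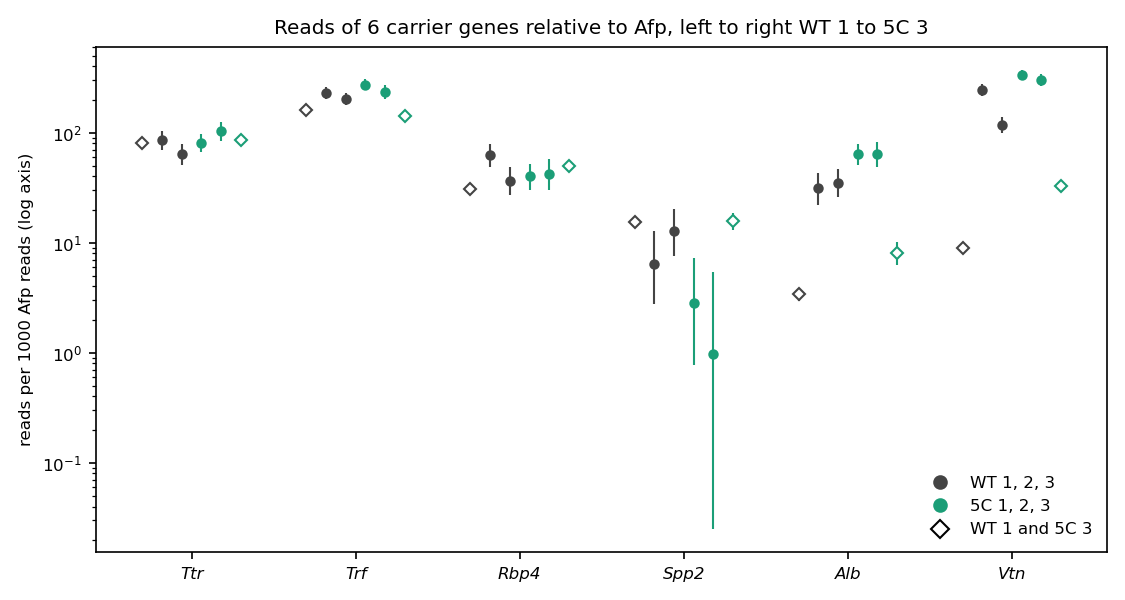
Reads of 6 carrier genes per 1000 *Afp* reads (log axis) in the libraries from WT replicate 1 on the left to 5C replicate 3 on the right of each gene, with exact 95% intervals. Open diamonds mark WT replicate 1 and 5C replicate 3, in which *Ttr* lies within the range of the other libraries while *Alb* and *Vtn* fall far below it.

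Levels of different genes were compared only per length, as CPM per kilobase of the union of exons. *Afp* was first in all 6 libraries, from 25.1 CPM per kilobase in 5C replicate 1 to 915 in WT replicate 1. The second place differed: it was *Ttr* in WT replicate 1 and 5C replicate 3 (208 and 46.1), *Trf* in WT replicate 3 (13.7) and *Vtn* in the other 3 (12.9 to 13.9). In WT replicate 1 *Vtn* was sixth, with 13.5 CPM per kilobase, behind *Trf* (148), *Rbp4* (71.1) and *Spp2* (48.0).

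Over the 4 libraries without WT replicate 1 and 5C replicate 3, the median level per kilobase was 28.8 for *Afp*, 13.0 for *Vtn*, 7.64 for *Ttr*, 7.19 for *Trf*, 3.85 for *Rbp4* and 2.34 for *Alb*. *Hpx* and *Spp2* were at 0.478 and 0.467, and *Ahsg* and *Gc* at 0. The neighbours *Ttr* and *Trf* changed places between libraries and did not differ beyond their spread, and they changed places in 2 libraries when the longest transcript replaced the union of exons. The ranges of *Rbp4* and *Alb* overlapped over these 4 libraries, although *Rbp4* was the higher of the pair within each library. The ranges of *Hpx* and *Spp2* overlapped too, whereas *Afp*, *Vtn* and *Ttr* kept apart from one another. Only *Afp* kept apart from every other gene. The range of *Vtn* (12.9 to 13.9) overlapped that of *Trf* (6.18 to 13.7), and that of *Ttr* (5.76 to 12.2) overlapped that of *Rbp4* (2.52 to 6.16).

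**Figure D3:**
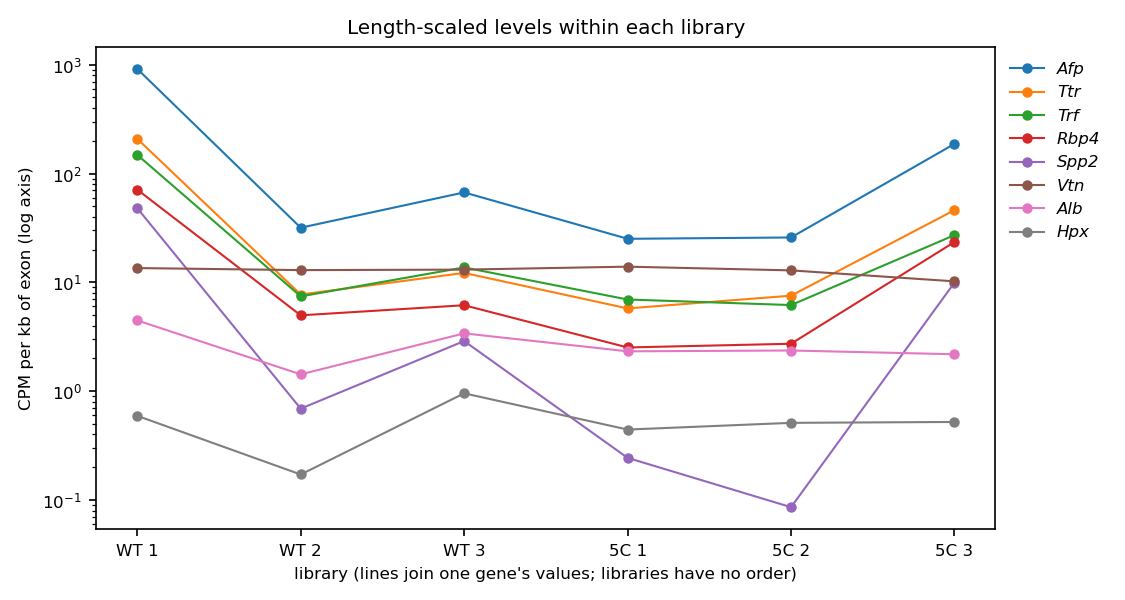
Level per length of 8 carrier genes in each library (CPM per kilobase of exon, log axis), where lines join the values of one gene and the libraries have no order. *Afp* is first in every library, while *Vtn* stays between 10.2 and 13.9 and is overtaken by *Ttr*, *Trf* and *Rbp4* in WT replicate 1 and 5C replicate 3.

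The design asks how the carrier genes differed between 5C and WT. With all 6 libraries 0 of the 8 tested carrier genes passed an adjusted p of 0.05, and neither did any of the 16784 genes (0%) at a fold change over 1.5. By edgeR, 1011 genes (6.02%) had an unadjusted p under 0.05, and 0 of the 8 carrier genes were among them. Genes lower in 5C made up 3.47% of all genes at that unadjusted p. DESeq2 called 11 genes and limma-voom 0. No carrier gene was called by either, but DESeq2 gave an adjusted p only for 4 of the 10, *Alb*, *Trf*, *Spp2* and *Vtn*, so that *Afp*, *Ttr* and *Rbp4* could not have been called by it. All 8 carrier genes had a lower fitted level in 5C, as had 50.7% of all genes tested. Their median log2 fold change was -1.79, beside -0.00 over all genes.

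These 8 share their libraries and mostly their profile, so they are not 8 separate observations of genotype. *Afp*, *Ttr*, *Rbp4* and *Spp2* also stand in the list of genes that the study itself called on these samples, which makes that list no independent evidence of their direction. The study names the same kind of edgeR test, whereas the main fit here called 0 genes. These 4 were called here only when the count filter was dropped. What made the 2 results differ was not tested. For every carrier gene the WT and 5C values overlapped, whereas 11.4% of all genes tested had groups that did not overlap.

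The direction of the fitted difference changed with single libraries. Without WT replicate 1 alone, when 5C replicate 3 was the highest library left for *Afp*, the median log2 fold change of the carrier genes tested was 0.70, that of *Afp* 0.70, of *Ttr* 1.03, of *Rbp4* 0.81, of *Trf* 0.38 and of *Spp2* 1.15. Without 5C replicate 3 the median was -3.29, with -3.73 for *Afp* and -6.61 for *Spp2*. In each case 0 of the carrier genes passed an adjusted p of 0.05 by edgeR. When the count filter was dropped, 0.963% of all genes passed, among them 6 of the 10 carrier genes (*Afp*, *Ttr*, *Trf*, *Rbp4*, *Spp2* and *Gc*), with nearly the same fold changes and far smaller p-values. Most yolk sac markers had the order of *Afp*, highest in WT replicate 1 and next in 5C replicate 3, and their part in the result was not tested. *Lrp2* did not, with 93.3 CPM in 5C replicate 3 and 93.9 CPM in WT replicate 3. Among the carriers *Alb*, *Ahsg*, *Hpx* and *Vtn* did not have 5C replicate 3 second.

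**Figure D4:**
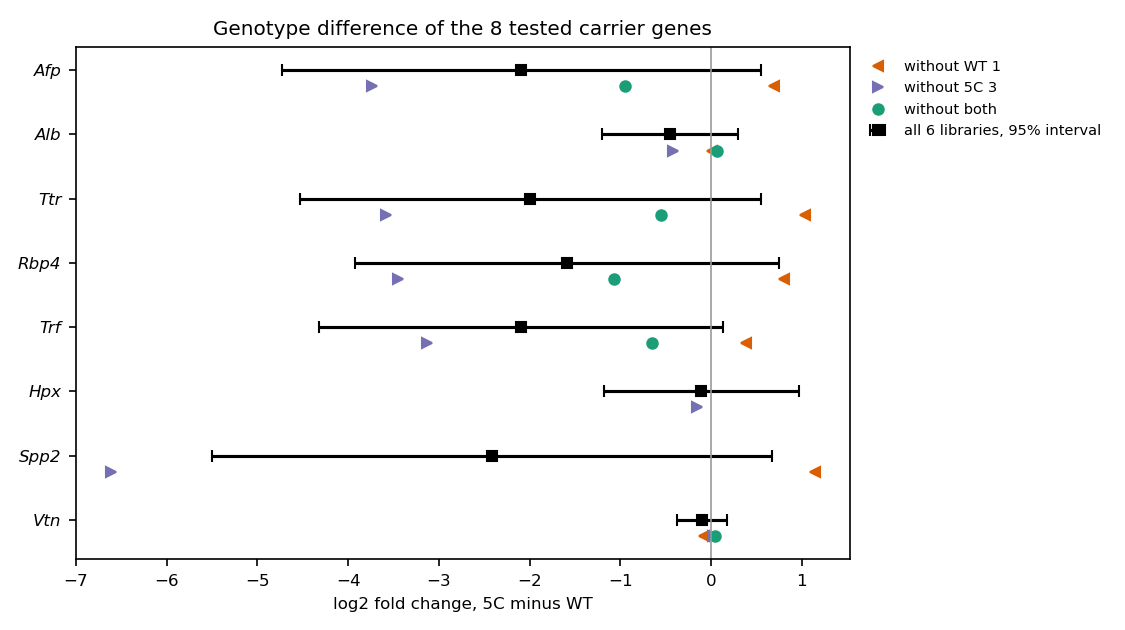
Log2 fold change (5C minus WT) of the 8 tested carrier genes from all 6 libraries (squares, bars for 95% intervals) and without WT replicate 1, without 5C replicate 3 or without both. For *Afp*, *Ttr*, *Rbp4*, *Trf* and *Spp2* the value is above 0 without WT replicate 1 and below 0 in the other fits shown, and for *Hpx* and *Spp2* the points of fits in which they did not pass the filter are left out.

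Without both libraries the groups were 2 against 2. The libraries left out were the 2 in which *Afp*, *Ttr*, *Trf*, *Rbp4* and *Spp2* were highest. That choice is not independent of the values compared here. Here both WT libraries lay above both 5C libraries for 5 of the 10 carrier genes, *Afp*, *Ttr*, *Trf*, *Rbp4* and *Spp2*. Of the 6 that passed the filter in these libraries 4 did so, beside 16.2% of the 16569 genes tested there, and 32.9% had groups that did not overlap in either direction. WT averaged 166 and 5C 85.9 CPM for *Afp*. The averages were for *Rbp4* 7.48 and 3.52 CPM, for *Trf* 35.1 and 21.8 CPM and for *Ttr* 11.8 and 7.89 CPM. *Alb* (5.65 and 5.49 CPM) and *Vtn* (26.4 and 27.2 CPM) were nearly level.

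In this fit the log2 fold change was -1.06 for *Rbp4* (SE 0.21, 95% interval -1.53 to -0.60) and -0.94 for *Afp* (SE 0.25, 95% interval -1.49 to -0.40). Their unadjusted p-values by edgeR were 3.9e-04 and 0.00288, and their adjusted p-values 0.270 and 0.681. *Trf* and *Ttr* had -0.65 and -0.55, with adjusted p-values of 0.919 and 0.999, and *Alb* and *Vtn* had 0.07 and 0.04. An unadjusted p under 0.05 was found for these 4 of the 6 genes, beside 4.71% of all genes and 2.69% in the direction of lower in 5C. None of the 6 passed the correction over all genes. Leaving out the libraries in which *Rbp4*, *Afp*, *Trf* and *Ttr* were highest narrowed their spread. The SE of *Afp* was 0.25 here and 1.18 with all 6 libraries. These intervals and unadjusted p-values therefore describe the libraries kept and are no independent evidence on genotype.

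In the same 4 libraries 7 of the 8 yolk sac markers were likewise higher in both WT libraries, beside 16.2% of all genes tested there. *Amn* and *Lgals2*, which are among the 7, did not pass the filter in these libraries. *Muc13* was the exception, with 0.851 CPM in the WT pair and 1.15 CPM in the 5C pair (log2 fold change 0.55). *Cubn* and *Apoa4* are given as examples chosen after their values were seen, and the difference was smaller for *Lrp2* (log2 fold change -0.41). *Cubn* averaged 19.16 CPM in the WT pair and 3.55 CPM in the 5C pair (log2 fold change -2.35, edgeR adjusted p = 0.169). *Apoa4*, an apolipoprotein of absorptive endoderm, averaged 7.71 and 0.133 CPM (log2 fold change -5.52, adjusted p = 0.110). The lower carrier levels of these 5C libraries thus went along with lower levels of most yolk sac markers, whose part in the result was not tested.

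**Figure D5:**
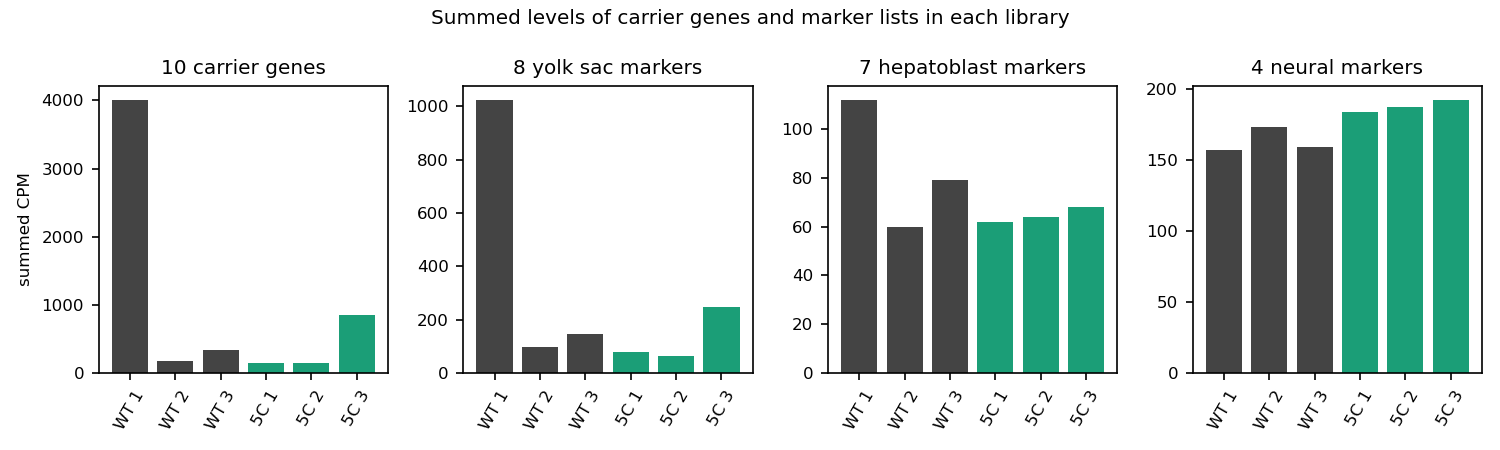
Summed level (CPM, linear axes from 0) of the 10 carrier genes and of 3 marker lists in each library, WT dark and 5C green. The carrier genes and the yolk sac markers are both highest in WT replicate 1 and next in 5C replicate 3, and the hepatoblast sum is also highest in WT replicate 1 (59.7 to 112 over all libraries), and neural sums range from 158 to 193.

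Other gene lists place the carriers among related genes. The counts of every list below stand beside the shares over all genes tested. Of these, 50.7% were lower in 5C, 6.02% had an unadjusted p under 0.05 by edgeR, and 3.47% were lower with such a p. With all 6 libraries the 8 yolk sac markers were all lower in 5C, 2 of them with an unadjusted p under 0.05, and their median log2 fold change was -2.16. The smallest p-values were those of *Lrp2* (log2 fold change -0.92), *Amn* (-2.33) and *Lgals2* (-2.44), each with an adjusted p of 0.781 by edgeR. The median of these markers was close to the value of *Afp* (-2.09), while that of *Lrp2* was smaller in size.

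Liver bud hepatoblast markers (*Hnf4a*, *Foxa3*, *Onecut1*, *Hhex*, *Prox1*, *Tbx3* and *Cebpa*) summed to 112, 59.7 and 78.9 CPM in the WT libraries and to 62.1, 64.1 and 68.0 CPM in the 5C libraries. Of the 7, 1 had an unadjusted p under 0.05, *Hnf4a*, with a log2 fold change of -2.00 (adjusted p = 0.781 by edgeR). *Hnf4a*, which yolk sac endoderm also expresses, had 35.2 CPM in WT replicate 1 and 7.03 CPM in 5C replicate 3, and 1.96 to 4.46 CPM in the other 4 libraries. *Foxa3*, a further hepatoblast marker chosen after its values were seen, had the same order, with 4.92, 2.27 and 0.343 to 0.796 CPM. The other hepatoblast markers did not have this order. *Hhex*, *Prox1*, *Tbx3* and *Onecut1* were highest in WT replicate 3, with 5.41, 15.9, 44.7 and 4.93 CPM. *Cebpa* was highest in WT replicate 1 (7.53 CPM), but 5C replicate 1 came next (3.20 CPM).

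The 16 hepatic and visceral endoderm regulators, which include all 7 hepatoblast markers, had 14 genes tested. All 14 were lower in 5C, beside 50.7% of all genes tested, and their median log2 fold change was -0.23. Only 1 had an unadjusted p under 0.05, beside 6.02% of all genes tested. *Foxa2*, *Onecut1*, *Prox1*, *Zbtb20* and *Zhx2* were lower by less than their SE. After *Hnf4a* the smallest p-values belonged to *Nr5a2* (-0.52) and *Gata6* (-0.26), neither of which passed.

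Of 15 other plasma carriers 7 passed the filter, 5 of them lower and 2 higher in 5C (median log2 fold change -0.37). The only unadjusted p under 0.05, beside 6.02% of all genes tested, was that of *Hp*, the hemoglobin carrier haptoglobin. *Hp* was higher in 5C (log2 fold change 1.12, adjusted p = 0.781 by edgeR), at 0.318 to 0.576 CPM in WT and 0.852 to 1.49 CPM in 5C. It had only 11, 6 and 2 reads in the WT libraries and 16, 10 and 21 in the 5C libraries. Its level in WT replicate 3 lay below the 0.472 CPM that a count of 0 allows there. *Tcn2*, the vitamin B12 carrier, and *Apom*, the carrier of sphingosine 1-phosphate, had log2 fold changes of -0.37 and -1.79.

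Of 14 receptors and partners of the carriers 13 were tested, 10 lower and 3 higher, with a median log2 fold change of -0.08, and 1 listed gene, *Cd163*, had no read in any library. *Lrp1*, the hemopexin receptor, had a log2 fold change of -0.22, and *Lrp2*, or megalin, which takes up retinol-binding and vitamin D-binding protein, of -0.92. *Tfrc*, the transferrin receptor of red cell precursors, had 0.26, with 438 to 458 CPM in WT and 440 to 638 CPM in 5C. The 4 genes with an unadjusted p under 0.05, 3 lower and 1 higher, were these 3 and *Amn*, beside 6.02% of all genes tested. Each of the 4 had an adjusted p of 0.781 by edgeR. *Lrp2* and *Amn* are also the 2 yolk sac markers with such a p, so the 2 lists do not count separate genes there. *Trf* and its receptor thus did not share a library profile.

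Of the remaining marker lists, choroid plexus and roof plate markers had 5 genes tested (2 lower, 3 higher, 0 with an unadjusted p under 0.05, median log2 fold change 0.01). Pericyte markers had 5 (4 lower, 1 of them with an unadjusted p under 0.05, 1 higher, median -0.15). Primitive erythroid markers had 3 (1 lower, 2 higher, 0 with an unadjusted p under 0.05, median 0.07) and summed to 8878 to 12140 CPM in WT and 8089 to 15806 CPM in 5C. The 4 neural markers were all higher in 5C (1 with an unadjusted p under 0.05, median 0.20), and the 3 cardiac markers all lower (median -0.18), with *Myh6*, an atrial myosin heavy chain, at -0.85 (adjusted p = 0.781 by edgeR), the 1 of the 3 with an unadjusted p under 0.05. Of the 8 decidua and placenta markers 5 were tested, 1 lower and 4 higher (1 of these with an unadjusted p under 0.05, median 1.07), and they summed to 13.5 to 48.1 CPM in WT and 11.7 to 49.4 CPM in 5C. *Gzmg*, a granzyme of decidual natural killer cells, had a log2 fold change of 2.24, *Gzmd* 1.82 and *Prl3b1* -0.60, each with an adjusted p of 0.781 by edgeR. None of the listed genes passed the adjusted threshold.

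Finally, the genes whose pattern over the 6 libraries was most like that of the carriers were listed by distance to the carriers' median profile, the root mean square difference of centred log2 CPM. The 10 nearest were *Apom* (0.18), *Slc39a4* (0.19), *Fgg* (0.20), *Mcoln2* (0.20), *Creb3l3* (0.20), *Klb* (0.23), *Apoa2* (0.24), *Hnf4a* (0.25), *Tmprss2* (0.28) and *Nxf7* (0.28). Among the carriers the distance was 0.15 for *Trf*, 0.26 for *Afp*, 0.30 for *Ttr* and 0.32 for *Rbp4*, against 1.17 for *Spp2*, 1.32 for *Alb*, 1.51 for *Hpx* and 1.66 for *Vtn*, and a median of 1.64 over all genes. The tested carriers themselves define the profile, so a short distance of their own is partly built in. *Spp2* kept the same 2 libraries highest but swung more widely than the profile. The profile itself stood at 3.12 in WT replicate 1 and 0.999 in 5C replicate 3, and between -1.43 and -0.09 in the other 4 libraries, in log2 units around the gene's mean. Of the 10, *Apoa2* and *Fgg* encode other secreted plasma proteins, an apolipoprotein and a fibrinogen chain, and *Apom* is on the list of other carriers. *Fgg* had 69.1 CPM in WT replicate 1, 16.7 CPM in 5C replicate 3 and 2.18 to 6.52 CPM in the others.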

How the data were processed

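RNA-seq of E10.5 whole embryos, 3 WT and 3 5C libraries, was analysed from 1 table with a column for each library. Per the labels and the study's methods, the authors made stranded poly(A) libraries, used STAR and the GRCm38 genome with Ensembl genes for single-end reads, and deposited their raw counts of each gene. The deposited counts are whole numbers without normalisation. Genotype and replicate number were taken from the sample titles, and no batch is named in them. Total counts ran from 6357343 to 19151368, which sets the precision of rare genes. The lowest chi-square per gene between any pair of libraries was 5.26, so none was counted as a duplicate.

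Symbols, positions and lengths came from a GENCODE annotation of GRCm38, which matched 55141 of the 55401 gene identifiers. Genes were filtered with filterByExpr, scaled by TMM and tested for genotype across all 16784 remaining genes with the quasi-likelihood F-test of edgeR 4.0.16 in R 4.3.3, with Benjamini-Hochberg adjustment. Calls required both an adjusted p below 0.05 and a fold change above 1.5. The scripts were tested on simulated data with known fold changes. Alternatives were DESeq2 1.42.0, limma-voom (limma 3.58.1), other scalings and filters, robust moderation, a replicate block, and leaving out libraries. The p-values set the genotype difference against the spread between these 3 pools per genotype, moderated across genes. Intervals of counts are exact Poisson and those of reads per 1000 *Afp* reads exact binomial at 95%, for counting error only, since no molecular identifiers were used.

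The carrier genes, lists and tests were chosen with earlier results of these data known. All 10 carrier genes were named in any case, then at most the 3 genes with the smallest p of each list, the 10 genes nearest to the carriers' median profile, and *Mir483*. The study's own fold changes and p-values were not used.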

Additional observations from a re-analysis of the deposited data

How the results depend on the processing

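The count of called genes was 0 with all 6 libraries and 0 with RLE factors, no composition factor, at least 10 counts in every library, limma-voom or the block. It was 319 of 33139 genes with no count filter (0.963%, 298 lower and 21 higher in 5C), 11 by DESeq2, 3 with robust moderation, 2 without WT replicate 1 and 5C replicate 3, and 0 to 1 when single libraries were left out. Carrier genes were among the called genes only with no count filter (DESeq2 gave no adjusted p for 6 of the 10), at adjusted p-values of 3.9e-114 for *Afp*, 1.1e-88 for *Ttr*, 4.5e-123 for *Trf*, 2.6e-35 for *Rbp4* and 5.5e-38 for *Spp2*, and *Gc* passed as well. In that fit the gene-wise spread was replaced by one common trend, and the quasi-dispersion used for *Afp* was 0.361 in place of 55.1. The carriers' median log2 fold change ran from -3.29 to 0.70 when single libraries were left out and was -0.60 without both high libraries. *Afp* then ran from -3.73 to 0.70, *Alb* from -0.81 to 0.0153, *Ttr* from -3.58 to 1.03, *Trf* from -3.13 to 0.38, *Rbp4* from -3.45 to 0.81, *Spp2* from -6.61 to 1.15, *Vtn* from -0.19 to 0.0235 and *Hpx* from -0.53 to 0.22. *Alb* and *Vtn* were at 0.0714 and 0.0444 without both high libraries, and *Hpx* at 0.11 by limma-voom (the cause was not tested). The adjusted p-values of the carriers without a single library ran from 0.326 to 0.99985, and leaving out a single library changed how many of them had an unadjusted p under 0.05 from 0 (6 without WT replicate 2, 5 without 5C replicate 3 and 2 without WT replicate 3, beside 10.4%, 4.49% and 5.11% of all genes in those fits). Libraries with equal replicate numbers deviated together with correlations of -0.17, 0.20 and -0.17, so the numbers were not taken as pairs. With the replicate block the carriers' median log2 fold change was -1.005 and 782 genes had an unadjusted p under 0.05, with 0 called. RLE factors kept 10 and leaving *Afp* out of the profile kept 9 of the 10 nearest genes, and *Vtn* averaged 14.9 CPM per kilobase with the longest transcript in place of 12.8. *Gc*, *Ahsg*, *Hpx* and, among the other plasma carriers, *Hp* are limited by their few reads.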
